A study of Homo sapiens with 6 samples.

Results

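A set of 10 pericellular matrix genes was examined in large physaliferous and small non-vacuolated chordoma cells: *ACAN*, *VCAN*, *HAPLN1*, *CSPG4*, *CD44*, *HAS2*, *HAS3*, *BGN*, *DCN* and *LUM*. They were taken as the probe sets whose platform symbol was exactly one of these names, and each of the 10 genes had 1 such probe set, so 10 of the 18404 genes tested were members. The cells belonged to MUG-Chor1, a line grown out of a chordoma of the sacrum and coccyx; chordomas are bone tumors of the spine and skull base whose cells resemble the notochord. Pools of 20 large physaliferous cells (large pools 2, 3 and 4) were set against pools of 20 small non-vacuolated cells (small pools 5, 6 and 7), all untreated and picked from trypsinized cultures, and their cDNA was amplified and measured on 1 Affymetrix Human Gene 1.0 ST array per pool. Both groups were thus phenotypes of 1 tumor-derived line, and intermediate cells were not on the arrays. Whether each pool was picked from a culture of its own is stated neither in the labels nor in the methods, which describe pools picked in quadruplicate, and the p-values therefore cover the spread among these pools alone, which may be technical.

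Aggrecan and versican are large chondroitin sulfate proteoglycans that bind chains of hyaluronan through their ends, and link protein locks them onto the chain. Hyaluronan synthases in the plasma membrane extrude that chain, and CD44 holds it at the cell surface. Biglycan, decorin and lumican belong to the small leucine-rich proteoglycans, which sit on collagen fibrils. Cartilage and the nucleus pulposus, a tissue that descends from the notochord, are rich in aggrecan, and chordoma tissue is known for its myxoid, proteoglycan-rich stroma.

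The large and small pools did not overlap for 3 of the 10 genes, *CD44*, *BGN* and *VCAN*, as for 27% of all genes. The promoters of these 3 and of *ACAN*, the core protein of cartilage matrix, are shown. Each is the 250 bases before the gene's start in RefSeq on GRCh38.p14, 5′ to 3′ in the direction of the gene, with each GC box (GGGCGG or its reverse complement CCGCCC, both strands searched) in capitals.
CD44 (chr11:35138921-35139170, + strand): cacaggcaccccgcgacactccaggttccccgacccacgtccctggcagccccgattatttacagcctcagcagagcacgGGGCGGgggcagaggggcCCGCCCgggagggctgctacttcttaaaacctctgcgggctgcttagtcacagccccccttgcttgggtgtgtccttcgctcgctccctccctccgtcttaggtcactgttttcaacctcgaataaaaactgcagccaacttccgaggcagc
BGN (chrX:153494730-153494979, + strand): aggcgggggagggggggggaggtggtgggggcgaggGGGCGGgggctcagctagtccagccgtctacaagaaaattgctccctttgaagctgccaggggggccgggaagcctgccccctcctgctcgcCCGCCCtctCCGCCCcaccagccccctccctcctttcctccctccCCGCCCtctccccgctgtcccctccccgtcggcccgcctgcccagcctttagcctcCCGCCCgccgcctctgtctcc
VCAN (chr5:83471494-83471743, + strand): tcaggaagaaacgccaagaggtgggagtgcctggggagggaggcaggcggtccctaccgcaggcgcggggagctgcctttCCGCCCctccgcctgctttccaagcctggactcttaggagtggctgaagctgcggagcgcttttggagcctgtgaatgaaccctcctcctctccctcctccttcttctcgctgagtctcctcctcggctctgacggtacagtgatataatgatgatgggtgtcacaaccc
ACAN (chr15:88803186-88803435, + strand): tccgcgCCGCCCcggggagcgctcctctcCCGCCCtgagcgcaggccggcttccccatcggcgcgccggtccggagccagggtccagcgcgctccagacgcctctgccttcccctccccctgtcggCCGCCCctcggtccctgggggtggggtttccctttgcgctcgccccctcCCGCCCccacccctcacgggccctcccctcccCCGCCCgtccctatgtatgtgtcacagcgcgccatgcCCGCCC
Of the 10 genes 7 had a promoter entry, and *HAS2*, *DCN* and *LUM* had none. A GC box was found in 6 of these 7 (*ACAN*, *VCAN*, *CSPG4*, *CD44*, *HAS3* and *BGN*), and in 42.3% of all 27305 promoter windows of this length. *ACAN* held 6 boxes, *BGN* 5, *CD44* 2 and *VCAN* 1, and *HAPLN1* was the one without. The G and C content of the 7 windows ran from 50.8% (*HAPLN1*) to 77.2% (*ACAN*), against a median of 58% over all windows. All but *HAPLN1* lay above that median, and the part of base content in the box counts was not tested. The TATA box TATAAA, the SOX core AACAAT and the T-box half-site AGGTGTGA, which brachyury recognizes, were found in 0 of the 7 with both strands searched, against 11.1%, 9.19% and 0.787% of all windows. These matches describe letters in a window and are no evidence of binding.

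The arrays gave log2 expression values after robust multi-array averaging. A value above the log2 of 100 (6.64) was taken as above the expression floor; this limit lay close to the array medians, which were 6.64 to 6.68 in large pools and 6.73 to 6.76 in small pools. Over all genes the large pools were lower by a median of 0.11 on the log2 scale, and 66.4% of genes had a lower mean in large cells. With only genes above the floor in at least 2 pools the median was -0.098 and 61.9% were lower. That direction did not hold for the 2062 of them with an interquartile range above 0.5. There the median was 0.31, and 31.6% had a lower mean in large cells. The median of the 10 genes was -0.12, and 7 of the 10 had a lower mean in large cells. The chordoma markers *TBXT*, *KRT8*, *KRT18*, *KRT19*, *CD24* and *VIM* were above the floor in 6 of 6 pools, and brachyury (*TBXT*) had 10.36 ± 0.04 in large and 10.29 ± 0.11 in small pools (SD, n = 3 each). By limma with Benjamini-Hochberg adjustment 0 of the 18404 genes (0%) passed an adjusted p under 0.05 with an absolute log2 fold change above 1. At an unadjusted p under 0.05 there were 2731 genes (14.8%), of which 797 (4.33%) were higher and 1934 (10.5%) lower in large cells. Among the 10 genes 1 reached that unadjusted limit, *BGN*, and the adjusted p of the 10 ran from 0.33 to 0.96. The large and small pools did not overlap for 3 of the 10 genes, *CD44* (higher) and *BGN* and *VCAN* (lower), and for 27% of all genes (5.48% higher, 21.6% lower). These shares lie near the background and give no result about the 10 genes as a group. With 3 pools a side, the lowest p that an exact permutation test (two-sided) can reach is 0.1. Above the floor in all 6 pools were 4 of the 10 genes (*ACAN*, *HAPLN1*, *CD44* and *HAS3*), against 43.4% of all genes, and in no pool 4 of the 10 (*VCAN*, *CSPG4*, *HAS2* and *DCN*), against 30.4%.

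**Figure D1:**
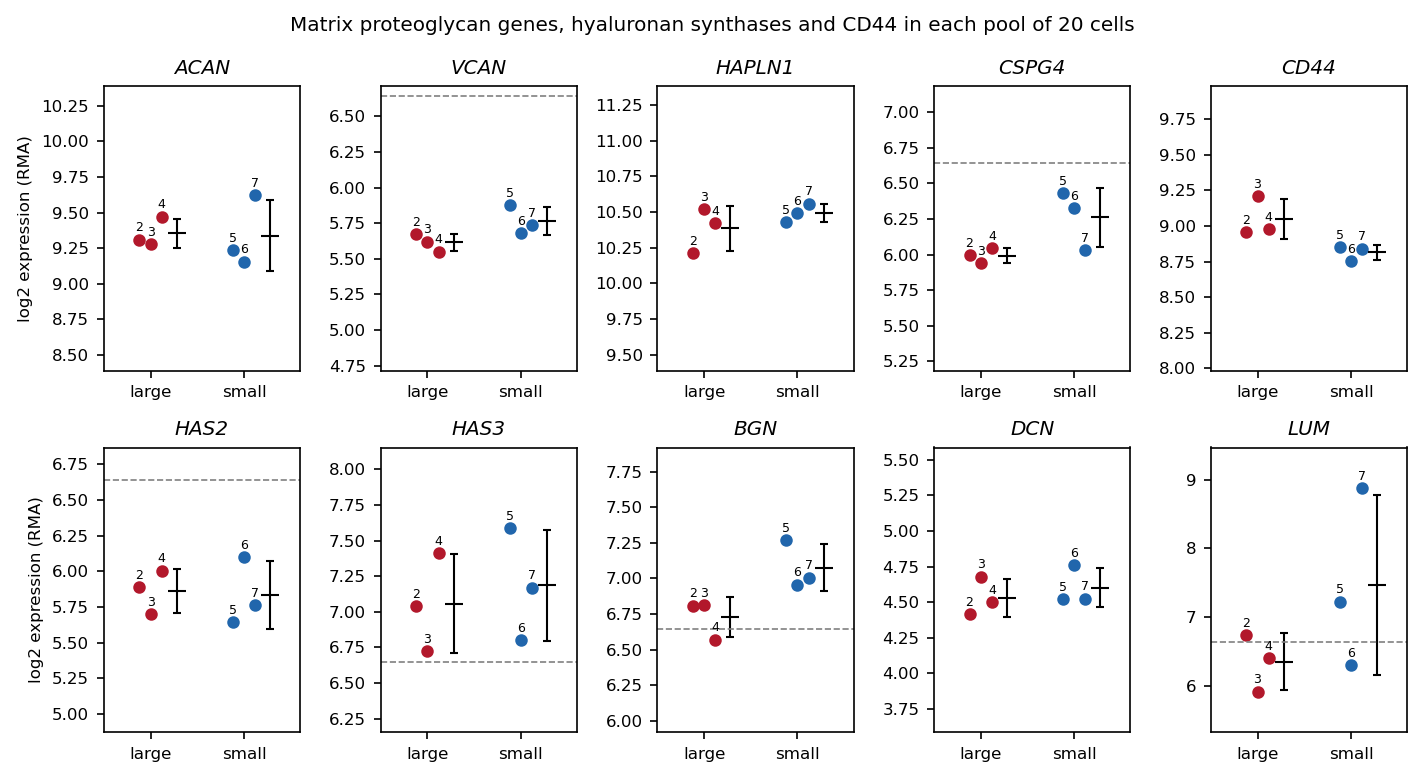
Log2 expression (vertical axes, each panel with its own range) of the 10 genes in each pool of 20 cells, large pools in red and small pools in blue, with the pool number above each point. Horizontal ticks with bars are means and SDs (n = 3 pools) and dashed lines mark the expression floor of 6.64 where it falls in the panel. *CD44* sits higher in every large pool, *BGN* lower in every large pool, and *LUM* ranges from 6.30 to 8.88 among the small pools.

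Aggrecan and its link protein were well above the floor in all 6 pools, with nearly the same mean in both phenotypes. *ACAN* had 9.31, 9.28 and 9.47 in large pools 2, 3 and 4, against 9.24, 9.16 and 9.62 in small pools 5, 6 and 7. The small pools held both the highest and the lowest of the 6 values, so the groups overlapped entirely. Its log2 fold change was 0.016 (standard error 0.15, 95% confidence interval -0.35 to 0.38; limma adjusted p = 0.96), and -0.023 after a further quantile normalization. Differences within that interval could not be told from the spread of these pools.

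*HAPLN1*, the link protein, had 10.21, 10.52 and 10.42 in large pools, against 10.43, 10.49 and 10.56 in small pools. Large pool 2 was the lowest of the 6, and the other two large pools lay among or beside the small ones. Its log2 fold change was -0.11 (standard error 0.12, interval -0.39 to 0.17; limma adjusted p = 0.61), which equals the median shift of all genes. Without large pool 2 it was -0.022.

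*VCAN*, versican, which shares the hyaluronan-binding design of aggrecan but is typical of soft and developing tissue, was below the floor in all 6 pools. Its values were 5.67, 5.62 and 5.55 in large pools, against 5.88, 5.68 and 5.74 in small pools. The groups did not overlap, but the gap between the nearest pools, large pool 2 and small pool 6, was only 0.0072. Its log2 fold change of -0.15 (interval -0.39 to 0.09; limma adjusted p = 0.45) became -0.066 when each array was centred on its median. After that centring and after quantile normalization the groups overlapped. In the order of RefSeq genes *VCAN* and *HAPLN1* are direct neighbors on chromosome 5, one below the floor in every pool and the other above it in every pool.

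*CD44*, the main cell-surface receptor for hyaluronan, was the only one of the 10 genes with a higher value in every large pool. It had 8.96, 9.21 and 8.98 in large pools, against 8.85, 8.75 and 8.84 in small pools. The small pools lay within 0.10 of each other, the large pools within 0.25, and the gap between the groups was 0.11. The means were 9.05 ± 0.14 in large and 8.81 ± 0.05 in small cells (SD, n = 3 pools each). The log2 fold change was 0.23 (standard error 0.11, 95% interval -0.03 to 0.50), that is 1.18-fold. The limma unadjusted p was 0.074 and the adjusted p 0.35, and the exact permutation test (two-sided) gave p = 0.1, the smallest it can give. As most genes were lower in large cells, *CD44* stood 0.34 above the median shift of all genes, and with arrays centred on their medians its log2 fold change was 0.32 (interval 0.04 to 0.60; unadjusted p = 0.031, limma). After quantile normalization it was 0.18 (unadjusted p = 0.13). The groups stayed apart under both rescalings. Leaving out a pool cannot make separate groups overlap, so it was no test of their separation. With a pool left out the log2 fold change ranged from 0.15 (without large pool 3) to 0.28 (without large pool 2).

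Proteins that can bind the tail of CD44 were measured beside it, but ezrin, also listed, had no probe set of its own. Of radixin (*RDX*), moesin (*MSN*) and merlin (*NF2*), 3 of 3 had a higher mean in large cells, where 66.4% of all genes had a lower one, and 0 had an unadjusted p under 0.05. *RDX* had 10.78, 10.56 and 10.80 in large pools, against 10.51, 10.68 and 10.28 in small pools. Large pool 3 lay below small pool 6, so the groups overlapped, and the log2 fold change was 0.22 (interval -0.12 to 0.56; limma adjusted p = 0.43). The log2 fold changes of *MSN* and *NF2* were 0.027 and 0.059.

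The cell-surface proteoglycan *CSPG4* (NG2), known from pericytes, glial progenitors and melanoma, was below the floor in all 6 pools. It had 6.00, 5.94 and 6.04 in large pools, against 6.43, 6.33 and 6.03 in small pools. Small pool 7 sat with the large pools, and the other small pools lay above them. Large cells differed from small cells by -0.27 on the log2 scale (standard error 0.13, interval -0.58 to 0.05; limma adjusted p = 0.36). Leaving out small pool 7, the only small pool among the large values, parts the groups by itself. The log2 fold change was then -0.39 with an unadjusted p of 0.017 (limma). Of the 13 alternatives that tested *CSPG4*, only this 1 had an unadjusted p under 0.05. Since all values lie under the floor, the size of this difference is uncertain.

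The hyaluronan synthases *HAS2* and *HAS3* did not separate the phenotypes, and *HAS1*, also listed, had no probe set of its own. *HAS2*, the synthase of embryonic mesenchyme, had 5.89, 5.70 and 6.00 in large pools, against 5.64, 6.10 and 5.76 in small pools, all below the floor. Its log2 fold change was 0.030 (interval -0.35 to 0.41; limma adjusted p = 0.93), and it turned negative when large pool 4, small pool 5 or small pool 7 was left out. *HAS3* had 7.04, 6.72 and 7.41 in large pools, against 7.58, 6.80 and 7.17 in small pools, all above the floor. Each phenotype had low and high pools, spread over 0.69 (large) and 0.78 (small). The log2 fold change of *HAS3* was -0.13 (interval -0.75 to 0.50; limma adjusted p = 0.81), an interval wide enough that sizeable differences in either direction could not have been detected.

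Biglycan (*BGN*), a small proteoglycan of bone, cartilage and skin, had the smallest p of the 10 genes. It had 6.81, 6.81 and 6.57 in large pools, against 7.27, 6.96 and 7.004 in small pools. Every large pool lay below every small pool, with a gap of 0.15, and large pool 4 was under the expression floor. The means were 6.73 ± 0.14 in large and 7.08 ± 0.17 in small cells (SD, n = 3 pools each). The log2 fold change was -0.35 (standard error 0.13, 95% interval -0.66 to -0.03), that is 1.27-fold lower in large cells. The limma unadjusted p was 0.038 and the adjusted p 0.33, and 2082 genes had a p as small or smaller. The exact permutation test gave p = 0.1. Relative to the median of all genes the difference was -0.24. The unadjusted p was 0.093 after quantile normalization and 0.092 after centring, and it was above 0.05 without large pool 2, 3 or 4 or small pool 5 or 7 (log2 fold change -0.25 without small pool 5 and -0.27 without large pool 4).

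Marker lists of other cell types were measured beside *BGN* and *VCAN*, and are read against the 66.4% of all genes with a lower mean in large cells and the 10.5% that were lower at an unadjusted p under 0.05. Of the cartilage markers 6 of 6 had a lower mean in large cells and 2 of 6 reached the unadjusted limit, with a summed level of 9.31 to 9.54 in large pools and 9.69 to 9.85 in small pools on the log2 scale. *COL2A1*, the collagen of cartilage fibrils, had 7.81, 7.68 and 8.13 in large pools, against 8.42, 8.30 and 8.19 in small pools (log2 fold change -0.43, limma unadjusted p = 0.025, adjusted p = 0.32). The other marker at the unadjusted limit, *MATN1*, was under the floor in all pools, as was *MATN3*. Of the fibroblast markers 8 of 8 had a lower mean and 0 of 8 reached the unadjusted limit, with a summed level of 10.48 to 10.84 in large pools and 10.99 to 11.08 in small pools. *THY1*, the highest of them, weighed most in that sum. It had 9.68, 9.27 and 10.08 in large pools, against 10.07, 10.21 and 10.14 in small pools, so its own groups overlapped. *PDGFRA* and *FAP* were under the floor in all pools. A lower mean in large cells was also found for 4 of 5 endothelial, 3 of 5 leukocyte and 2 of 2 erythroid markers, of which 0 reached the unadjusted limit. By contrast, 1 leukocyte marker, *CD68*, was higher at that limit (log2 fold change 0.60, limma unadjusted p = 0.032, adjusted p = 0.33), with overlapping groups. Summed levels of the other lists overlapped between the groups. They were 8.49 to 8.76 in large and 8.64 to 8.73 in small pools (endothelial) and 9.27 to 9.69 and 9.03 to 9.42 (leukocyte). Erythroid markers had 7.12 to 7.42 in large and 7.36 to 7.48 in small pools, and chordoma markers 13.62 to 13.67 and 13.57 to 13.63. The part of any marker list in the values of *BGN* and *VCAN* was not tested. In pools of 20 cells, fewer cells with a transcript and less of it per cell cannot be told apart.

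*LUM*, lumican, had the widest spread of the 10 genes. It had 6.74, 5.91 and 6.40 in large pools, against 7.22, 6.30 and 8.88 in small pools. Small pool 7 stood 1.65 above the next pool, and small pool 6 lay below large pools 2 and 4, so the groups overlapped. The spread within groups (residual SD 0.97) was larger than for 98.0% of all genes. Large cells differed from small cells by -1.11 on the log2 scale (standard error 0.64, interval -2.68 to 0.45; limma adjusted p = 0.40). It was -0.41 without small pool 7 (unadjusted p = 0.32, limma) and -1.70 without small pool 6 (unadjusted p = 0.022), so single pools set its size. *LUM* was above the floor in 1 of 3 large and 2 of 3 small pools.

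*DCN*, decorin, the direct neighbor of *LUM* on chromosome 12 in the order of RefSeq genes, was far below the floor in all 6 pools. It had 4.41, 4.68 and 4.50 in large pools, against 4.52, 4.76 and 4.52 in small pools. For *DCN* the log2 fold change was -0.071 (interval -0.37 to 0.23; limma adjusted p = 0.77) and 0.013 after centring each array, so no direction can be given.

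**Figure D2:**
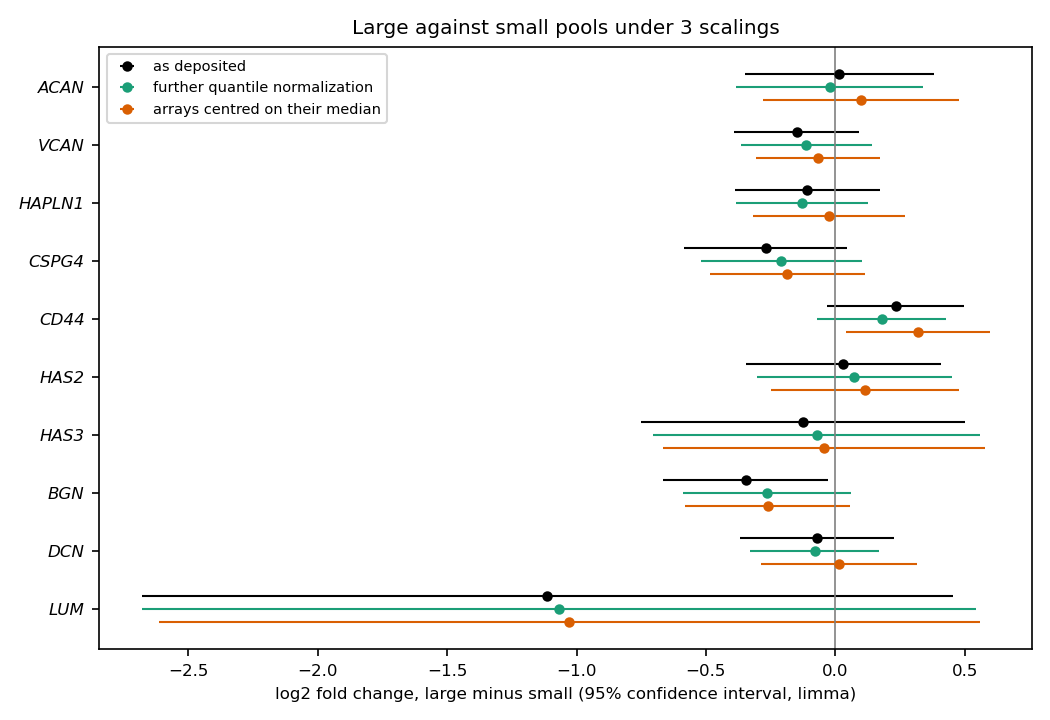
Log2 fold change of large against small pools (horizontal axis) with 95% confidence intervals from limma (3 pools against 3) for the 10 genes under 3 scalings: the deposited values (black), a further quantile normalization (green) and arrays centred on their medians (orange). The interval of *BGN* leaves 0 out only as deposited and that of *CD44* only after centring; *ACAN* and *DCN* change sign between scalings.

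**Figure D3:**
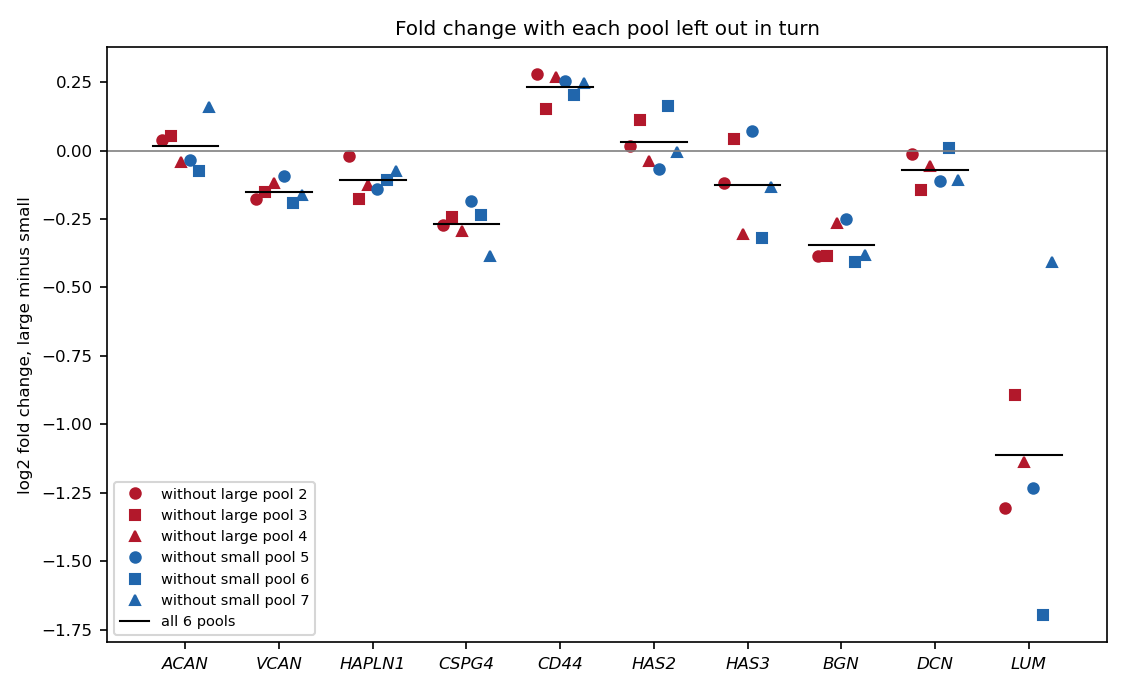
Log2 fold change of large against small pools (vertical axis) for each of the 10 genes with 1 pool left out; red symbols are without a large pool, blue symbols without a small pool and black lines are all 6 pools. *CD44* stays between 0.15 and 0.28 and *BGN* between -0.41 and -0.25, whereas *LUM* runs from -1.70 to -0.41.

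The other genes of the same matrix were taken from a list of 70, of which 64 had a probe set of their own. Of these 64, 50 (78.1%) had a lower mean in large cells, against 66.4% of all genes, and the median log2 fold change was -0.14. At an unadjusted p under 0.05 in limma 0 were higher and 8 (12.5%) lower, against 10.5% lower among all genes, and 0 passed after adjustment. The groups did not overlap for 21 of the 64 (32.8%), all lower in large cells, against 21.6% of all genes. Of the 8 genes at the unadjusted limit, *HAPLN2*, *HMMR* and *STAB1* kept it after quantile normalization and *HMMR* and *STAB1* after median centring. The counts by subgroup that follow rest on few genes and are to be read against the same shares of all genes, 66.4% with a lower mean, 10.5% lower at the unadjusted limit and 21.6% lower without overlap.

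All 5 of the brain hyalectans *NCAN* and *BCAN* and the link proteins *HAPLN2*, *HAPLN3* and *HAPLN4* had lower means in large cells, and 1 of them reached the unadjusted limit. *HAPLN2*, a link protein of brain, had 7.22, 7.24 and 7.46 in large pools, against 7.73, 7.80 and 7.49 in small pools, a log2 fold change of -0.37 (limma adjusted p = 0.32). *HAPLN3*, the RefSeq neighbor of *ACAN* on chromosome 15, had a log2 fold change of -0.22 (adjusted p = 0.46) beside the 0.016 of *ACAN*.

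Among the other small leucine-rich proteins 0 of 10 reached the unadjusted limit, and *PODN* had the smallest p (log2 fold change -0.17; limma adjusted p = 0.41). Well above the floor in all pools were fibromodulin (*FMOD*), *PRELP* and epiphycan (*EPYC*), a proteoglycan of growth cartilage; these 3 were picked after their values were seen. *FMOD* averaged 10.89 ± 0.10 in large and 10.86 ± 0.15 in small pools, *PRELP* 8.66 ± 0.14 in large and 8.65 ± 0.12 in small pools, and *EPYC* 10.93 ± 0.16 in large and 11.16 ± 0.28 in small pools (SD, n = 3 each). The large and small pools overlapped for each of these 3, and *EPYC* had a log2 fold change of -0.23 (limma adjusted p = 0.48).

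For each of the 3 basement membrane proteoglycans the large pools lay below the small pools without overlap, as for 21.6% of all genes. Agrin (*AGRN*) had 6.86, 6.46 and 6.88 in large pools, against 7.15, 7.08 and 7.20 in small pools, with large pool 3 under the floor. Its log2 fold change was -0.41 (interval -0.75 to -0.06, limma adjusted p = 0.32), and it kept an unadjusted p under 0.05 in 10 of 14 alternatives. *COL18A1*, the chain of collagen XVIII, had -0.25 (adjusted p = 0.34); its unadjusted p was under 0.05 in 3 of 14 alternatives and was 0.13 after centring. Perlecan (*HSPG2*) had -0.20 (adjusted p = 0.38). Of the syndecans 0 of 3 and of the glypicans 0 of 6 reached the unadjusted limit, *SDC1* having -0.12 and *GPC1* -0.31. *SRGN*, serglycin, the proteoglycan of secretory granules, had the smallest p of the remaining 9 proteoglycans, with 8.56, 8.60 and 9.52 in large pools, against 9.28, 9.37 and 9.56 in small pools. Large pool 4 sat with the small pools, and its log2 fold change was -0.51 (interval -1.18 to 0.16; limma adjusted p = 0.38).

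Of 11 other hyaluronan binders 10 had a lower mean in large cells, and 3 reached the unadjusted limit, against 66.4% and 10.5% of all genes. *HMMR*, a hyaluronan-binding protein that also acts on the mitotic spindle, had 6.62, 6.37 and 7.49 in large pools, against 8.31, 8.44 and 7.63 in small pools. Its log2 fold change was -1.30 (standard error 0.35, interval -2.15 to -0.45; limma unadjusted p = 0.0093, adjusted p = 0.32), and it kept an unadjusted p under 0.05 in 15 of 15 alternatives. Large pools 2 and 3 lay under the floor, so the size is uncertain. The scavenger receptor *STAB1* had -0.37 (adjusted p = 0.32), with an unadjusted p under 0.05 in 13 of 14 alternatives. *ITIH1*, whose product can be linked to hyaluronan and which was under the floor in all pools, had -0.25 (adjusted p = 0.33), with an unadjusted p under 0.05 in 6 of 13 alternatives and of 0.11 after centring.

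Of 5 genes of hyaluronan turnover 1 reached the unadjusted limit, *CEMIP*, which takes part in hyaluronan breakdown, with a log2 fold change of -0.38 (limma adjusted p = 0.32) and values under the floor in all pools. *UGDH*, which makes the UDP-glucuronate that hyaluronan and chondroitin sulfate chains need, had 8.89, 8.99 and 9.31 in large pools, against 8.97, 7.72 and 8.997 in small pools; it is named for its role, after its values were seen. Apart from small pool 6 the values overlapped. Of 6 ADAMTS proteases that cleave proteoglycans 6 had a lower mean in large cells, and 1 reached the unadjusted limit, the aggrecanase *ADAMTS4*, with -0.30 (adjusted p = 0.33) and 1 of 6 pools above the floor. *SOX9*, *SOX5* and *SOX6*, which drive aggrecan and collagen II in cartilage, were above the floor in all 6 pools. *SOX9* averaged 7.89 ± 0.25 in large and 8.05 ± 0.08 in small pools (SD, n = 3 each; limma adjusted p = 0.55), *SOX5* had a log2 fold change of -0.37 (adjusted p = 0.49) and *SOX6* of -0.045 (adjusted p = 0.90).

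**Figure D4:**
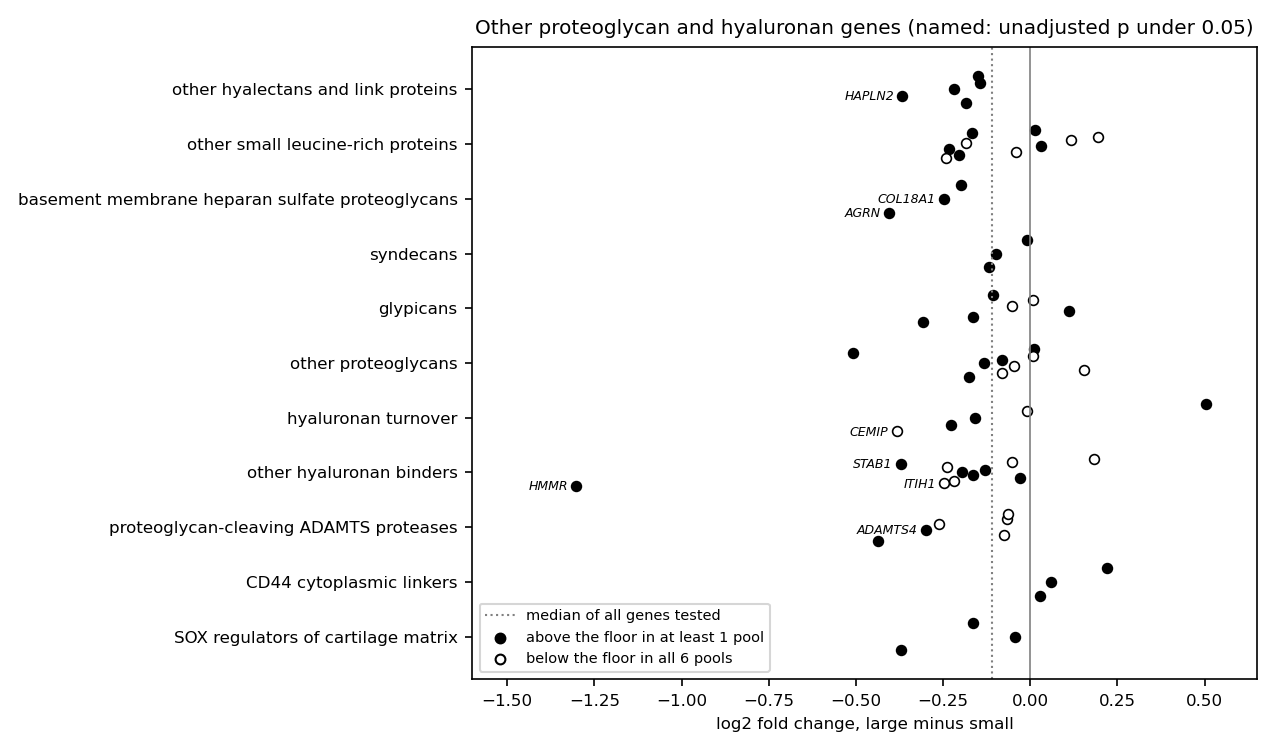
Log2 fold change of large against small pools (horizontal axis) for the 64 other proteoglycan and hyaluronan genes by subgroup (vertical axis). Filled points were above the expression floor in at least 1 pool, open points in none, and the dotted line is the median of all genes (-0.11); the 8 named genes had an unadjusted p under 0.05 and all lie to the left.

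Across the 6 pools the genes whose values ran most like those of *ACAN* were the pseudogene *ZNF818P* (Pearson r = 0.99), *IST1* (0.98) and *NDUFS1* (0.98), among 11693 other genes above the floor in at least 2 pools. For *CD44* they were *BTBD1*, *UTP23* and *ATP5PF* (0.98 for each). An r of at least 0.9 with *ACAN* was found for 0.539% and with *CD44* for 0.804% of these genes. With 6 pools these are descriptions without a test, and the pools share the phenotype contrast and the array scaling.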

How the data were processed

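Values were on the log2 scale as deposited by the authors, who had summarized the arrays by robust multi-array averaging (background correction, quantile normalization, median polish). The tools given are the affy package (methods) and Affymetrix Expression Console (submitters' processing notes). The chip definition file, slide and scan date are not given in the sources used here. Each column was 1 array, and 0 columns stayed unused. Of 32321 probe sets 19158 had 1 gene symbol, 1388 several and 11775 none; per symbol the probe set with the highest mean over the 6 arrays was kept. Large minus small was fitted with limma 3.58.1 in R 4.3.3 without covariates, and p-values were adjusted over 18404 genes by Benjamini-Hochberg. The methods' removal of genes without expression or change, given without limits, was used only as an alternative, so that each of the 10 genes was tested. With the limits set here, the floor alone kept 6 of the 10, and the floor with an interquartile range above 0.5 kept 1. Named are the 10 genes and, of the 64 others, those with an unadjusted p under 0.05 and otherwise the smallest p of each subgroup. Outside this rule *FMOD*, *PRELP*, *EPYC*, *UGDH*, *HSPG2*, *HAPLN3*, *MSN*, *NF2*, *SOX6* and *SOX9* are named too, for their role, level or position and after their values were seen, as are *NCAN*, *BCAN*, *HAPLN4* and the marker genes. The 10 genes and the lists were chosen with earlier results of these data known. The fit was tested on simulated data. Marker lists of endothelial, leukocyte and erythroid cells were measured as well: 4 of 5, 2 of 5 and 2 of 2 of their genes were under the floor in all pools. The number of pools sets the precision.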

Additional observations from a re-analysis of the deposited data

How the results depend on the processing

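Alternatives covered the filters, the scaling, the variance model, the probe set and each pool left out in turn, 15 in all. With the floor and an interquartile range above 0.5, 2062 genes were tested and only *LUM* of the 10 remained, so 0 of the 10 reached an unadjusted p under 0.05 and 0 had groups apart; 2 genes passed, *SNORD59B* and *ZNF814*, and 1 of 3 other matrix genes (*HMMR*) reached the unadjusted limit. The count of the 10 at that limit, 1 as deposited (*BGN*), was 0 after quantile normalization, 1 after median centring (*CD44* in place of *BGN*) and 0 to 2 with a pool left out (*BGN* and *LUM* without small pool 6, *CSPG4* without small pool 7, 0 without large pool 2, 3 or 4 or small pool 5). The count with groups apart, 3 as deposited, was 2 with the floor alone, 2 after quantile normalization and 2 after median centring. It was 3 to 5 with a pool left out, which cannot lower this count. The 8 other matrix genes at the limit became 4 with the floor, 3 after quantile normalization, 2 after centring and 3 to 10 with a pool left out. The log2 fold change of *ACAN* turned to -0.023 after quantile normalization and that of *DCN* to 0.013 after centring. With a pool left out *ACAN* ran from -0.076 to 0.16, *HAS2* from -0.066 to 0.16, *HAS3* from -0.32 to 0.073 and *DCN* from -0.14 to 0.0075; the other 6 of the 10 kept their sign in every alternative that tested them. The cause of these changes was not tested. Over all genes at an unadjusted p under 0.05, quantile normalization gave 834 higher and 1086 lower in large cells and centring 1207 higher and 718 lower, against 797 higher and 1934 lower in the deposited values; the median log2 fold changes were -0.069, -0.026 and -0.11 in that order. With the floor alone 661 genes were higher and 1096 lower at that limit, with a median of -0.098. Among the 2062 genes left by the floor and the interquartile range the direction turned, with 229 higher and 34 lower and a median of 0.31. No paired analysis was possible because the large pools (2, 3 and 4) and the small pools (5, 6 and 7) share no replicate number.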
